A study of Mus musculus with 8 samples.

Results

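The insulin and IGF-1 genes described here are Igf1, Igf1r, Insr, Irs1, Irs2, Akt1, Akt2, Igfbp3, Igfbp4 and Igfbp5, chosen by name as the ligand, receptors, substrates, kinases and binding proteins of 1 growth pathway. They were read through every probe set whose only gene symbol in the array's annotation is one of these names, which gave 31 of the 45037 probe sets that are not array controls. Total RNA of mouse gastrocnemius, the large calf muscle, had been hybridised to Affymetrix arrays with 1 array per sample. The 4 control samples were labelled wild type, and the 4 GR_KO samples were labelled GR KO, a loss of the glucocorticoid receptor that the series' design text writes as GR(i)skm-/-. All 8 samples had the strain background C57/Bl6J, and the mice were kept under a light and dark cycle. The labels give no age or sex of the mice, no agent and no driver of the deletion. The comparison asks whether transcripts of the pathway differ in muscle when the receptor gene is disrupted.

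IGF-1 is a secreted growth factor that binds the receptor tyrosine kinase encoded by Igf1r, a close relative of the insulin receptor encoded by Insr. Both receptors phosphorylate the docking proteins Irs1 and Irs2, which recruit phosphoinositide 3-kinase (PI3K) and lead to activation of the Akt kinases. In skeletal muscle this route drives glucose uptake and protein synthesis and restrains protein breakdown, while glucocorticoids act in the opposite direction. IGF binding proteins hold IGF-1 outside the cell and set how much of it reaches the receptor.

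The values are MAS5 signals, a brightness per probe set on a linear scale that the authors had scaled to a common mean. Array medians ran from 18 to 26, and with 4 arrays a group the precision of each value is limited by their number. The targeted gene Nr3c1 was lower on the GR_KO arrays at probe set 1460303_at, with signals of 307 to 377 on the control arrays and 76 to 134 on the GR_KO arrays (limma over all probe sets tested, adjusted p = 0.0240). Of its 5 other probe sets, 1457635_s_at also passed (log2 fold change -1.96, adjusted p = 0.0354). At 1421867_at, 1421866_at and 1453860_s_at the log2 fold changes were -1.07, -0.38 and -0.32 (limma adjusted p = 0.963 for each), and 1431378_at was below the filter. The 12 myofibre markers on the list, the actin Acta1 and the creatine kinase Ckm among them, were all above the signal filter. Control replicate 4 stood apart from the other controls. Its hybridisation spike-in signals were 3.17-fold those of the other controls, and its 3' to 5' signal ratio for Gapdh was 1.20 against 0.797 to 0.915 on the other 7 arrays. For Actb the ratio of control replicate 4 was 1.73, within the 0.991 to 1.84 of the others. Values without this array are given below where leaving it out moved the log2 fold change of a member's probe set above the filter by over 1.5 times or turned its sign.

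No member of the pathway passed the threshold between the groups. All 10 genes were above the signal filter at their brightest probe set, and 0 of them had an adjusted p under 0.05 in limma, against 0.0542% of the 11062 genes tested. At an unadjusted p under 0.05 there were also 0 of the 10, against 4.63% of all genes. Of the 31 probe sets, 26 were above the filter, and 0 of these passed in the test over all 22518 probe sets, where 0.0222% did. Again 0 of the 26 had an unadjusted p under 0.05, against 3.75% of all probe sets. The control and GR_KO signals overlapped for each of the 10 genes and each of the 31 probe sets, while 2.58% of genes and 2.19% of probe sets tested had groups that did not overlap. The median log2 fold change (GR_KO minus control) was 0.09 over the 10 genes and 0.01 over all genes tested. Values above 0 were seen for 7 of the 10 genes and for 52.2% of all genes. The count of members was 8 after quantile normalization, 9 after median centring and 5 without control replicate 4. The median log2 fold change over all genes tested was 0.035, 0.045 and 0.022 in these settings.

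**Figure D1:**
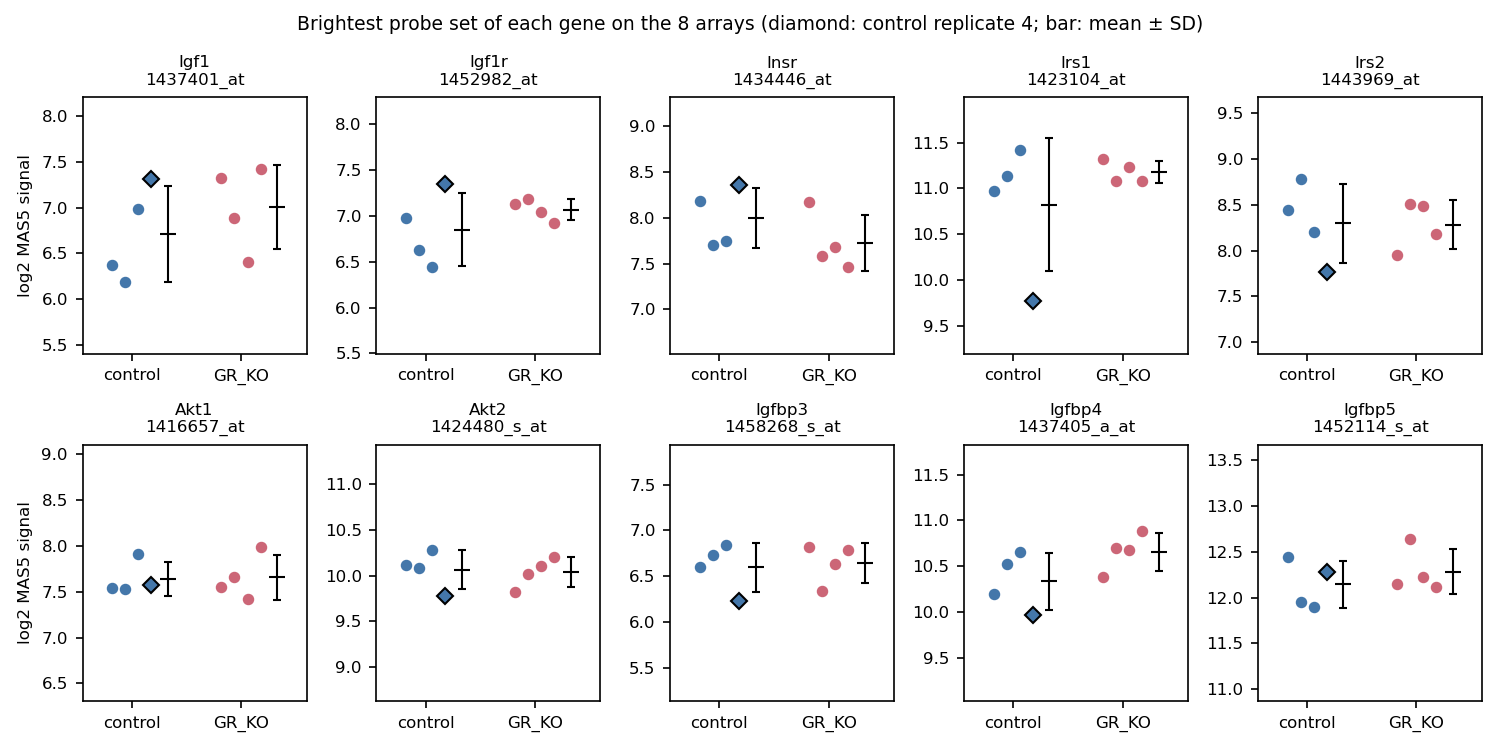
Log2 MAS5 signal of the brightest probe set of each gene on the 4 control and 4 GR_KO arrays. Each point is 1 array, diamonds are control replicate 4, bars are mean ± SD, and all panels span the same log2 range. The groups overlap in every panel, and control replicate 4 is the lowest array for Irs1 with a signal of 871.

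Igf1, the ligand made by muscle as well as liver, was measured by 4 probe sets, of which the 2 brighter and the 2 dimmer parted on control replicate 4. At the brightest, 1437401_at, the control signals were 83, 73, 127 and 159, and the GR_KO signals were 160, 118, 85 and 171. Both groups thus held arrays near the bottom and the top of the range. The means were 110 ± 40.0 and 134 ± 39.6 (SD, n = 4), and the log2 fold change was 0.29 ± 0.29 (SE, limma adjusted p = 0.881), with a 95% interval from 0.790- to 1.89-fold. Probe set 1434413_at, with a log2 fold change of 0.09, followed it, with control signals of 92, 60, 160 and 143 and GR_KO signals of 148, 87, 84 and 148.

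The other Igf1 probe sets parted from these on control replicate 4. At 1452014_a_at the control signals were 65, 79, 88 and 28, against 56 to 98 on the GR_KO arrays. At 1419519_at they were 49, 49, 71 and 21, against 53 to 74. On control replicate 4 these probe sets therefore had their lowest signals of the 8 arrays, while 1437401_at had its highest control signal there. The ratio of 1437401_at to 1452014_a_at was 5.68 on that array and between 0.924 and 2.86 on the other 7. The ratio of 1434413_at to 1419519_at was 6.81 there and between 1.22 and 2.79 elsewhere. Log2 fold changes at 1452014_a_at and 1419519_at were 0.32 ± 0.35 and 0.51 ± 0.34 (SE, limma adjusted p = 0.963 for both). Both rested on that array: without it they were -0.05 and 0.16, while 1434413_at went from 0.09 to 0.23. Averaging the 4 Igf1 probe sets gave a log2 fold change of 0.30 (limma adjusted p = 0.911). The value at 1437401_at was 0.49 with control replicate 4 left out (adjusted p = 0.995) and likewise 0.49 with GR_KO replicate 3 left out. It was 0.12 or 0.18 with control replicate 2 or 1 left out, and 0.15 or 0.19 with GR_KO replicate 4 or 1 left out. Single arrays of both groups thus moved it up and down without turning its sign.

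Igf1r, the IGF-1 receptor, had overlapping signals in the groups at all of its probe sets. The control signals at its brightest probe set, 1452982_at, were 126, 99, 87 and 163, and the GR_KO signals were 140, 146, 132 and 121. Of the controls, replicates 2 and 3 lay below all GR_KO arrays, and replicate 4 lay above them. The means were 119 ± 33.7 and 135 ± 10.8 (SD, n = 4), a log2 fold change of 0.22 ± 0.20 (SE, limma adjusted p = 0.881; 95% interval 0.861- to 1.58-fold). Without control replicate 4 it was 0.39, with an adjusted p of 0.995 and an unadjusted limma p of 0.0414. It was 0.086, the lowest value, with control replicate 3 left out, so the value depended on which control was removed. The SD was smaller on the GR_KO arrays at this probe set and at 1428967_at, and larger on them at 1426565_at (7.27 against 4.08) and 1452108_at (5.42 against 2.94).

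The other Igf1r probe sets above the filter gave values on the same side of 0. At 1426565_at the control signals lay between 58 and 68 and the GR_KO signals between 61 and 77, a log2 fold change of 0.18. The dimmer 1428967_at and 1452108_at had log2 fold changes of 0.14 and 0.37, the first of which was 0.49 without control replicate 4. Probe set 1446303_at, below the filter, had signals of 2 to 20 on all arrays. Its log2 fold change of 0.24 was -0.56 without control replicate 4. As with Igf1, the probe sets differed on control replicate 4, where 1452982_at and 1428967_at had their highest signals of the 8 arrays and 1426565_at and 1452108_at their lowest.

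**Figure D2:**
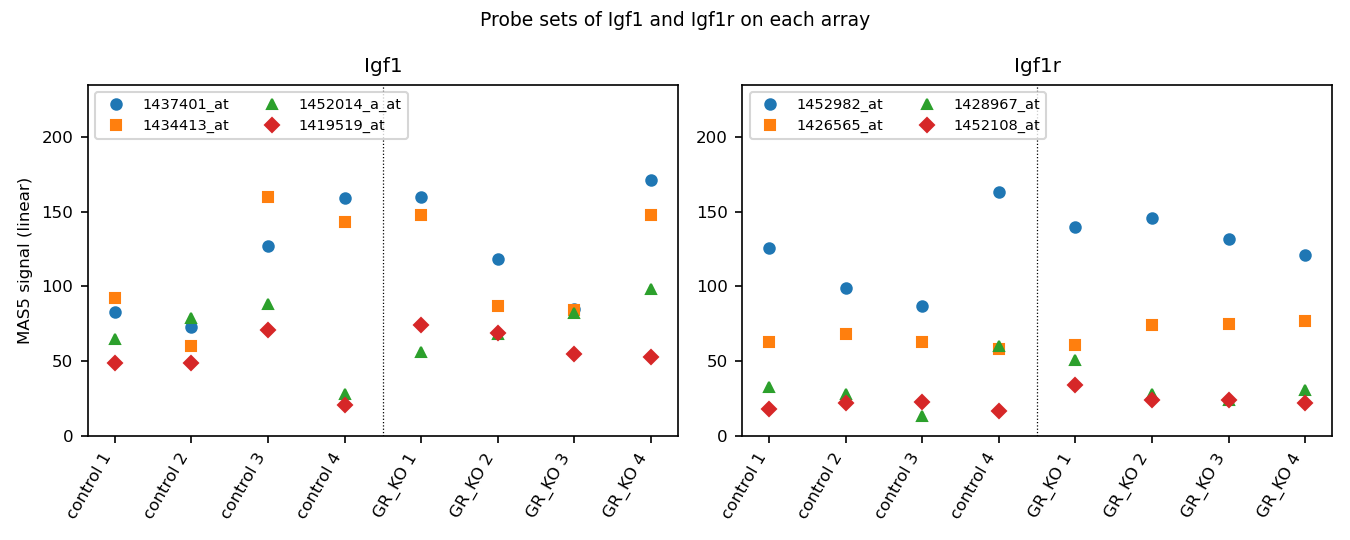
MAS5 signal (linear) of the 4 Igf1 and 4 Igf1r probe sets above the filter on each array, with 1 symbol per probe set and controls left of the dotted line. On control replicate 4 the Igf1 probe sets 1437401_at and 1434413_at read 159 and 143 while 1452014_a_at and 1419519_at read 28 and 21.

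Insr, the insulin receptor, was the gene with the lowest log2 fold change of the 10. At 1434446_at the control signals were 290, 209, 214 and 329, and the GR_KO signals were 288, 191, 205 and 177. GR_KO replicates 2, 3 and 4 lay below all controls, and GR_KO replicate 1 lay among the higher controls. The means were 260 ± 58.8 and 215 ± 49.8 (SD, n = 4), and the log2 fold change was -0.27 ± 0.20 (SE, limma adjusted p = 0.880; 95% interval 0.608- to 1.12-fold). Without GR_KO replicate 1 it was -0.42, with an adjusted p of 0.458 and an unadjusted limma p of 0.0489. Without control replicate 4 it was -0.15. Both other Insr probe sets, 1421380_at and 1450225_at, were below the filter, with signals of 13 to 29 and 4 to 26.

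The receptors were then set against each other within each array, as the log2 signal of Igf1r minus that of Insr. Only changes in this difference are compared, since levels of different probe sets are not comparable. The differences were -1.20, -1.08, -1.30 and -1.01 on the control arrays and -1.04, -0.39, -0.64 and -0.55 on the GR_KO arrays. Thus 3 GR_KO arrays lay above all controls, and GR_KO replicate 1 lay just below control replicate 4. The means were -1.15 ± 0.13 on control and -0.65 ± 0.28 on GR_KO arrays (SD, n = 4), a shift of 0.50 that did not pass (exact permutation p = 0.0571 two-sided, adjusted p = 0.171 over 3 such contrasts). The smallest p that 4 against 4 arrays can give is 0.0286. With the other p-values as observed, adjustment over the 3 contrasts would lift even that p above the threshold. This holds for each of the 3 contrasts. The adjusted test could therefore not call a shift in any 1 of them alone, and it cannot decide whether Igf1r minus Insr differs. With all probe sets of each gene averaged, those below the filter included, the shift of Igf1r minus Insr was 0.38 (exact permutation p = 0.286).

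Irs1, the main docking protein of both receptors in muscle, had only 1 probe set, 1423104_at. Signals on the control arrays were 2001, 2252, 2740 and 871, and those on the GR_KO arrays were 2551, 2170, 2401 and 2162. Apart from control replicate 4, all arrays lay between 2001 and 2740. The log2 fold change of 0.35 ± 0.29 (SE, limma adjusted p = 0.880; 95% interval 0.819- to 1.996-fold) was the highest of the 10 genes, and it was 0.0025 without control replicate 4 (adjusted p = 0.999). Removal of control replicate 3 gave 0.55.

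Irs2, the second docking protein, whose gene is known as a target of FoxO factors, had control signals of 349, 441, 294 and 217 at 1443969_at and GR_KO signals of 248, 365, 360 and 290. Control arrays held both the highest and the lowest value. The log2 fold change was -0.01 ± 0.22 (SE, limma adjusted p = 0.991; 95% interval 0.711- to 1.38-fold). It was -0.19 without control replicate 4. Set against each other within each array, Irs1 minus Irs2 was 2.52 ± 0.51 on control and 2.89 ± 0.34 on GR_KO arrays (SD, n = 4). That shift of 0.37 did not pass (exact permutation p = 0.257, adjusted p = 0.386), and it was 0.20 without control replicate 4.

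**Figure D3:**
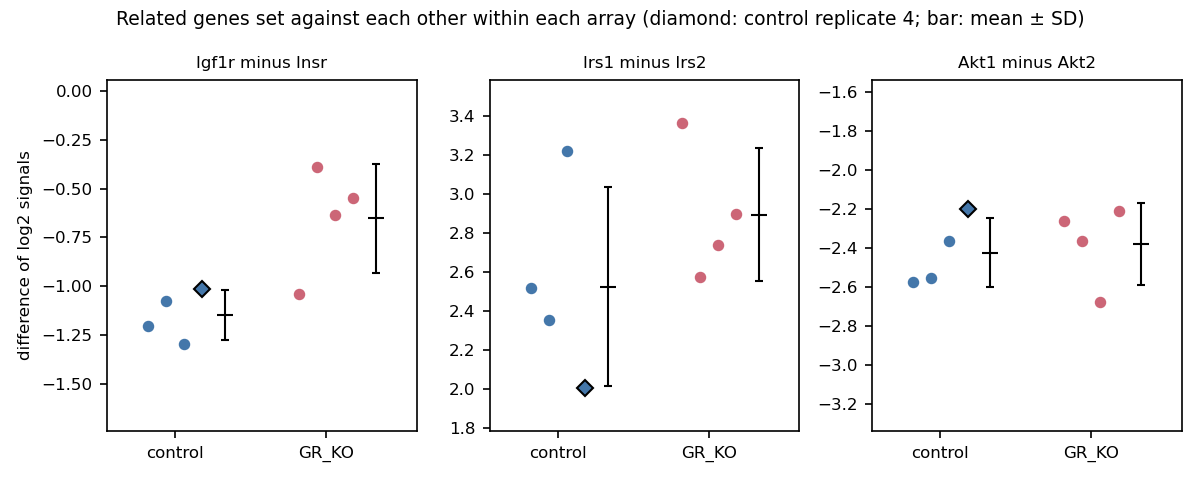
Difference of the log2 signals of 2 related genes within each array, for Igf1r minus Insr, Irs1 minus Irs2 and Akt1 minus Akt2. Each point is 1 array, diamonds are control replicate 4, and bars are mean ± SD (n = 4). For Igf1r minus Insr, 3 GR_KO arrays lie above all controls and GR_KO replicate 1, at -1.04, lies among them.

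The Akt kinases, which carry the signal on to glucose transport, mTOR and FoxO factors, had the narrowest intervals of the 10 genes. Akt1 at 1416657_at had control signals of 186, 185, 241 and 191 and GR_KO signals of 188, 202, 172 and 254. Most arrays lay between 172 and 202, with 1 higher array in each group. The log2 fold change was 0.02 ± 0.16 (SE, limma adjusted p = 0.990; 95% interval 0.790- to 1.29-fold). Its probe sets 1425711_a_at and 1440950_at had 0.18 and 0.06, and 1442759_at was dim, at 2 to 10. Without control replicate 4 the value at 1416657_at was -0.0042 and that at 1425711_a_at 0.10.

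Akt2, the form linked to insulin-driven glucose uptake in muscle, had control signals of 1110, 1088, 1245 and 878 at 1424480_s_at and GR_KO signals of 904, 1040, 1103 and 1177. The lowest arrays of the groups, control replicate 4 and GR_KO replicate 1, were close. Its log2 fold change was -0.03 ± 0.15 (SE, limma adjusted p = 0.976; 95% interval 0.786- to 1.22-fold), and its probe sets 1421324_a_at and 1455703_at had -0.09 and -0.10. With control replicate 4 left out, these 3 values were -0.12, -0.15 and -0.23. Akt1 minus Akt2 was -2.43 ± 0.18 on control and -2.38 ± 0.21 on GR_KO arrays (SD, n = 4; exact permutation p = 0.83, adjusted p = 0.83). For the Akt genes the intervals thus leave room for falls to 0.790- and 0.786-fold and rises to 1.29- and 1.22-fold.

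Among the binding proteins, Igfbp4, which in general holds IGF-1 away from its receptor, had the smallest p of the 10 genes. At 1437405_a_at the control signals were 1172, 1474, 1614 and 1004, and the GR_KO signals were 1333, 1657, 1642 and 1888. GR_KO replicates 2, 3 and 4 lay above all controls, and GR_KO replicate 1 lay among them. The means were 1316 ± 278 and 1630 ± 228 (SD, n = 4), a log2 fold change of 0.32 ± 0.18 (SE, limma adjusted p = 0.880, unadjusted p = 0.0921; 95% interval 0.958- to 1.63-fold). Leaving out control replicate 4 gave 0.20. Leaving out GR_KO replicate 1 gave 0.42, with a limma adjusted p of 0.451 and an unadjusted limma p of 0.0389. The highest value was 0.43, with control replicate 3 left out.

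The other Igfbp4 probe sets above the filter had log2 fold changes of 0.19 at 1437406_x_at, 0.17 at 1423757_x_at, 0.18 at 1423756_s_at and 0.30 at 1421992_a_at. The first of these was 0.02 without control replicate 4. The _x_ and _s_ names mark probes that may also bind other transcripts. That also holds for 1424480_s_at, 1458268_s_at and 1452114_s_at, the brightest probe sets of Akt2, Igfbp3 and Igfbp5. The Igfbp4 probe sets share a target and are not independent measurements. The sixth, 1421991_a_at, was listed at 4 to 45 with a log2 fold change of -0.41. With all 6 averaged the gene's log2 fold change was 0.12 (adjusted p = 0.953).

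Igfbp3, the main IGF carrier of blood, had control signals of 97, 106, 115 and 75 at 1458268_s_at and GR_KO signals of 113, 81, 99 and 110. Each group held 1 array apart from the rest on the low side. The log2 fold change was 0.04 ± 0.18 (SE, limma adjusted p = 0.971; 95% interval 0.779- to 1.36-fold), and it was -0.08 without control replicate 4. At 1423062_at, with a log2 fold change of 0.10, the control signals were 68, 71, 71 and 111 and the GR_KO signals 100, 53, 96 and 99. That value was 0.27 without control replicate 4. Control replicate 4 was thus the lowest array at the first Igfbp3 probe set and the highest at the second.

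Igfbp5, a binding protein abundant in muscle, had control signals of 5579, 3972, 3826 and 4964 at 1452114_s_at and GR_KO signals of 4543, 6385, 4808 and 4435. The ranges overlapped broadly, with the highest array, GR_KO replicate 2, above all controls. The log2 fold change was 0.14 ± 0.17 (SE, limma adjusted p = 0.900; 95% interval 0.846- to 1.43-fold). The dimmer 1422313_a_at had control signals of 742, 411, 411 and 283, GR_KO signals of 291, 595, 705 and 464, and a log2 fold change of 0.17, which was -0.04 without control replicate 4. At 1452114_s_at the value was 0.020 with GR_KO replicate 2 left out, 0.076 and 0.058 with control replicate 2 or 3 left out, and 0.24 with control replicate 1 left out. Its sign held in each of these, while its size rested on single arrays.

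**Figure D4:**
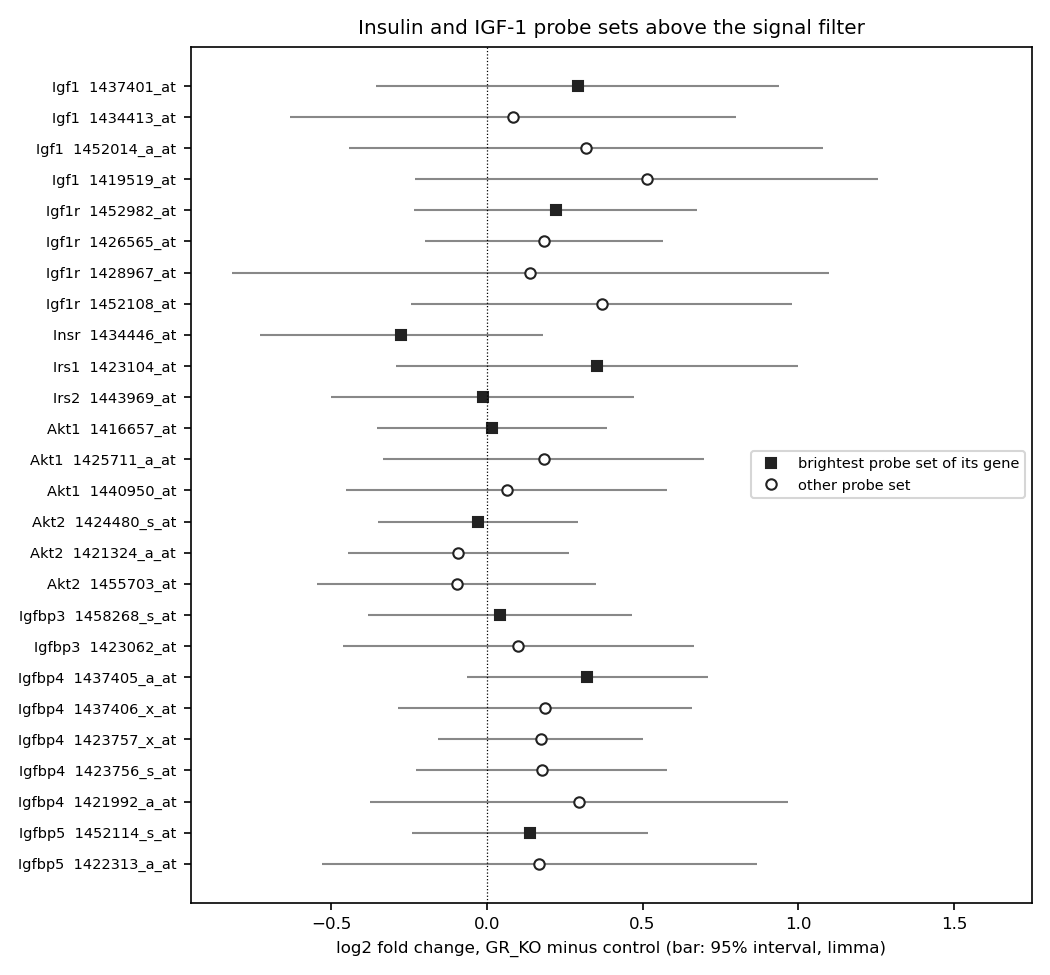
Log2 fold change (GR_KO minus control) of the 26 brighter probe sets, those past the filter on signal, with 95% intervals from limma. Squares are the brightest probe set of each gene and circles the others. Every interval spans 0, from the lowest value of -0.27 at Insr to the highest of 0.51 at the Igf1 probe set 1419519_at.

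Over the 26 probe sets above the filter, 21 had a log2 fold change above 0 and 5 below, where 47.8% of all probe sets tested were above 0. The median was 0.17 for these probe sets and -0.01 for all probe sets tested. Control replicate 4 was the lowest of the 8 arrays, ties included, at 13 of the 26 probe sets and at 23.7% of all probe sets tested. It was the highest array at 4 of the 26, against 30.1% of all. Without it 17 of the 26 were above 0, with a median of 0.12. The share of all probe sets above 0 without that array is not given here, so this count has no background beside it. GR_KO replicate 4 was the highest array at 10 of the 26, against 11.5% of all probe sets. Probe sets of a gene share their transcript, so these counts are no replicates of a change.

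A whole muscle holds other cells, and Igf1 and the binding proteins are also made by fibroblasts and endothelial cells. In such bulk RNA a change in the number of cells of a type cannot be told apart from a change in RNA per cell. Of 10 endothelial markers, Pecam1 and Cdh5 among them, 9 had a log2 fold change above 0, and their summed signal was 3519 to 4173 on control arrays and 4354 to 6135 on GR_KO arrays. The sum is weighted to the brighter markers. In the mean log2 signal of the 10 markers, centred over the arrays, the groups overlapped, with GR_KO replicate 2 at -0.097 and control replicate 3 at -0.059. For fibroblasts and matrix 7 of the 9 markers measured of 10 listed were above 0, with sums of 7149 to 13063 and 11690 to 16475. The markers below 0 were Pdgfra (-0.41) and Lum (-0.22). The lowest sum of both lists was that of control replicate 4. Of 12 myofibre markers 1 was above 0, with sums of 121675 to 254164 on control arrays, highest on control replicate 4, and 110322 to 169872 on GR_KO arrays.

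Sums of the remaining marker lists overlapped between the groups, as did those for fibroblasts and matrix and for myofibres. For macrophages and leukocytes 4 of the 8 markers above the filter were above 0, with sums of 621 to 1821 on control and 655 to 1247 on GR_KO arrays. For smooth muscle and pericytes it was 4 of 6, with 5593 to 6796 and 5407 to 6765. For satellite cells it was 2 of 4, with 563 to 687 and 548 to 759, and their marker Myf5 was listed at 0 on at least 1 array. For adipocytes it was 1 of 3, with 2223 to 5541 and 2127 to 3673. These sums too are weighted to the brighter markers. The adipocyte marker Fabp4 alone had 2137 to 5501 on control and 2051 to 3603 on GR_KO arrays. The leukocyte marker Ptprc had 999 on control replicate 4, against 10 to 91 on the other controls. None of the markers in these lists or the 3 before them passed an adjusted p of 0.05. The part of other cells, of hybridisation or of RNA quality in the values of Igf1, Irs1 and the binding proteins was not tested.

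The other genes of the pathway, listed by role, did not pass either. Of 63 such genes, 5 had no probe set of their own and were not analysed here, 7 were below the filter and 51 were tested. Of the 51, 0 passed an adjusted p of 0.05, and 1 had an unadjusted p under 0.05, against 4.63% of all genes. A log2 fold change above 0 was seen in 29 and below 0 in 22, with a median of 0.04 against 0.01 for all genes tested.

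Of the other ligands, receptors and binding proteins, all 7 tested were above 0, with a median log2 fold change of 0.13. Igfbp6, which prefers IGF-2, had 0.38 ± 0.30 (SE, limma adjusted p = 0.880), and Igfals, the partner of Igfbp3 in the circulating IGF complex, had 0.32 ± 0.30 (adjusted p = 0.881). The median of this list stayed between 0.07 and 0.24 when single arrays were left out. Of the other substrates and adaptors 4 of 8 were above 0. Gab1, a docking protein, and Sos2, an activator of Ras, each had 0.25 ± 0.14 (limma adjusted p = 0.880 for both).

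In the group of PI3K, PDK1 and mTORC2 genes 5 of 10 were above 0. Pik3r1, the regulatory subunit of PI3K and a known glucocorticoid-induced gene, was the 1 gene of the 51 with groups that did not overlap, against 2.58% of all genes, a share near that of the list. It had control signals of 562, 457, 455 and 447 and lower GR_KO signals of 326, 392, 282 and 232. Its log2 fold change was -0.66 ± 0.17 (SE, limma adjusted p = 0.777, unadjusted p = 0.00269). Pik3r1 was also the 1 gene of the 51 with an unadjusted p under 0.05. Its other probe sets above the filter had -0.74 and -0.48 (limma adjusted p = 0.963 for both, unadjusted p = 0.0254 and 0.156). The related subunit Pik3r2 had 0.35 ± 0.18 (adjusted p = 0.880). Of 15 targets downstream of Akt 7 were above 0. Foxo4, a factor that Akt keeps out of the nucleus, had -0.32 ± 0.17, and Gsk3a, a kinase that restrains glycogen synthesis, had 0.44 ± 0.24 (limma adjusted p = 0.880 for both).

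Of 11 dampers of the pathway 6 were above 0. Socs3, which blocks receptor signalling, had -0.57 ± 0.32, and the Akt phosphatase Phlpp1 had -0.23 ± 0.15 (SE, limma adjusted p = 0.880 for both). The other Socs3 probe sets above the filter had -0.21 and -0.52.

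**Figure D5:**
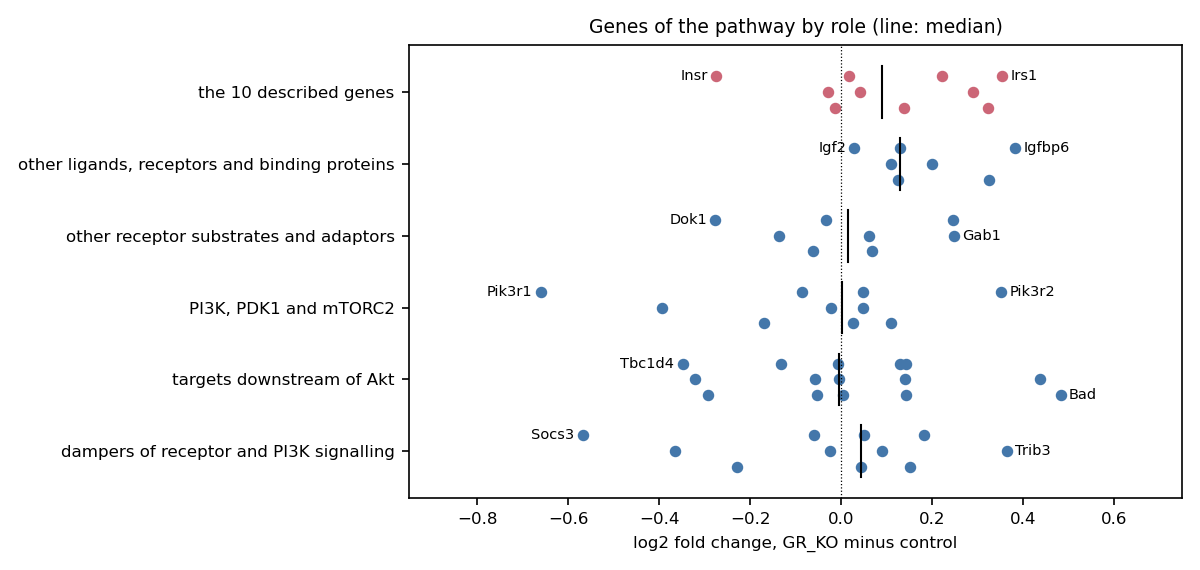
Log2 fold change (GR_KO minus control) of the 10 described genes and of the 51 other pathway genes tested, grouped by role, with the lowest and highest gene of each group named and a line at each median. The medians lie between -0.0037 for targets downstream of Akt and 0.13 for other ligands, receptors and binding proteins, and Pik3r1 is the lowest gene at -0.66.

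The 3 genes that varied most over the 8 arrays were Irs1, Igf1 and Irs2, with an SD of 0.52, 0.48 and 0.33 in log2 signal. Likeness to each was measured as the root mean square difference between mean-centred log2 signals over the 8 arrays, among the 11062 genes tested. The genes nearest to Irs1 were Palm (0.16), St6galnac4 (0.17) and Armcx6 (0.17). Like Irs1, all of them had their lowest signal on control replicate 4: 39 for Palm, where the other arrays lay between 82 and 111, 45 for St6galnac4 and 10 for Armcx6. Nearest to Igf1 at 1437401_at were the interleukin receptor gene Il4ra (0.18), Sfxn3 (0.20) and Marcks (0.21). Of these, Il4ra (73) and Sfxn3 (110) had their highest signal on control replicate 4, and Marcks (313) on GR_KO replicate 1. Nearest to Irs2 were the protease inhibitor gene Timp4 (0.093), Tlcd3b (0.10) and the lipase gene Pnpla3 (0.11). Like Irs2, they also had their lowest signal on control replicate 4: 340 for Timp4, 444 for Tlcd3b and 41 for Pnpla3. These likenesses describe 8 arrays of 2 groups, and their adjusted limma p-values between the groups lay between 0.880 and 0.981.

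Start sites of 9 of the 10 genes were matched in the RefSeq promoter table (build GRCm38.p6), with 13 windows running from 250 bases before to 50 bases after a start. Insr had no window there and was not searched. The glucocorticoid response element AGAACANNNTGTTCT, its relaxed form GNACANNNTGTNC and the single hexamer AGAACA, searched on both strands, matched 0 of the 13 windows. The full element contains the hexamer, so these searches overlap. Of all 32851 windows 0.00913%, 0.475% and 19.0% held a match. The receptor often binds far from start sites, and the absence of these letters says nothing on its binding. The FoxO site GTAAACA, also searched on both strands, matched 1 of the 13 windows and 3.65% of all windows. That match lay 161 to 155 bases before a start of Akt1, on the strand opposite to the gene, and is shown because FoxO factors are inhibited by Akt and oppose them in muscle. The stretch at chr12:112675027-112675057 is given on the gene's strand, the minus strand, with the match in capitals.
Akt1: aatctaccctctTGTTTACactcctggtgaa
The match is a run of letters and not a measured binding site, and Akt1 did not pass between the groups.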

How the data were processed

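The deposited table holds linear signal intensities that the authors computed with MAS5, according to the submitters' processing notes in the labels; neither its version nor its scaling target is stated there. Signals were taken to log2 without a pseudocount, after each 0 had been replaced by the array's smallest positive signal. A gene was read at the brightest of the probe sets that name it alone. Genes and probe sets with a mean log2 signal over the median of all non-control probe sets, a signal of 19.4, were tested. The test was limma 3.58.1 (R 4.3.3; eBayes with trend, two-sided, group as the only term), with Benjamini-Hochberg adjustment over all genes or all probe sets. The 3 contrasts of related genes used exact permutation over 70 arrangements. The limma script was tested on simulated data, and the permutation script on an example with a known answer. Since no label says that samples were separate animals, p-values cover the spread between samples, which may be technical. The members and lists were chosen with earlier results of these data known. Named besides the members and Nr3c1 were up to 2 genes of each role with the smallest p, and the 3 nearest genes of the 3 most variable members. Samples were not paired by replicate number, since no label says what the number stands for and same-numbered samples did not all deviate together. Alternatives covered normalization, pseudocount, filter, probe set choice, the variance model, a replicate block and single arrays.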

Additional observations from a re-analysis of the deposited data

Results flagged for a closer look

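In 6 of 88 groups of 4 arrays examined, 1 array lay far from the other 3 by Dixon's criterion on log2 signals; chance flags about 1 in 20 groups. Control replicate 4 had a signal of 2 at the dim Igf1r probe set 1446303_at, where the other controls had 16 to 20, and 111 at the Igfbp3 probe set 1423062_at, where they had 68 to 71. At that Igfbp3 probe set GR_KO replicate 2 had 53, where the other GR_KO arrays had 96 to 100. GR_KO replicate 1 had 61 at the Igf1r probe set 1426565_at, below 74 to 77 on the others. Control replicate 3 had 241 at the Akt1 probe set 1416657_at, above 185 to 191. For Pik3r1 at 1438682_at, control replicate 1 had 562, above 447 to 457 on the other controls. The part of any single cause in these values was not tested.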

How the results depend on the processing

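In every alternative 0 of the 10 genes, 0 of their probe sets and 0 of the other pathway genes passed an adjusted p of 0.05. The lowest adjusted p of any of the 10 genes was 0.451, for Igfbp4 without GR_KO replicate 1. Igf1, Igf1r, Irs1, Igfbp4 and Igfbp5 stayed above 0 and Insr below 0 throughout. The sign changed for Akt1 (-0.0029) and Igfbp3 (-0.084) with array weights, for Akt2 with median centring (0.0033), and for Irs2 with quantile normalization (0.010) and median centring (0.018). With single arrays left out these genes ranged from -0.094 to 0.11 for Akt1, from -0.12 to 0.044 for Akt2, from -0.082 to 0.14 for Igfbp3 and from -0.19 to 0.15 for Irs2. Igf1r minus Insr ranged from 0.41 to 0.62, Irs1 minus Irs2 from 0.20 to 0.60 and Akt1 minus Akt2 from -0.011 to 0.15. The count of genes past the threshold, 6, was 0 with no filter, 1 with a gene's probe sets averaged, 2 without a trend and 10 with array weights, and the count of probe sets, 5, was 3 with quantile normalization, 0 with no filter, 1 without a trend and 10 with array weights. Both ranged from 0 to 5 with single arrays left out, and both were 0 when control replicate 1 or 3, or GR_KO replicate 2 or 4, was the array left out. Without GR_KO replicate 3 they were 2 and 0, without control replicate 2 both were 3, and without GR_KO replicate 1 there were 2 probe sets. With the replicate number as a block 1 gene and 0 probe sets passed. The deviations of same-numbered samples had correlations of -0.19, 0.18, 0.11 and -0.40. No label says what the number stands for, and whether same-numbered samples shared a batch was not tested. The cause of the changes across these alternatives was not tested.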
